A study of Mus musculus with 12 samples.

Results

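All 12 biopsies of the series were compared here as 6 pairs, the late against the early colon tumor biopsy of the same mouse, and the genes described are those whose late minus early difference had the same sign in all 6 mice. Of 19938 genes measured, 516 (2.59%) were higher late in all 6 mice and 1033 (5.18%) were lower late in all 6. The mice were F1 hybrids of SWR females and C57BL/6 males and carried Apc Min/+, a truncating allele of the Wnt pathway inhibitor Apc that gives intestinal tumors. All received 2 treatments with 4% dextran sodium sulfate, a detergent-like polymer that injures the colon lining, for 4 days each around weaning, with 17 days of water between. Tumors were then given 30 days to form, colonoscopy was done every 14 days and biopsy every 28 days. No untreated mice, no mice without the allele and no normal colon were among the samples, so late and early biopsies share genotype and injury. Biopsies were kept in RLT buffer or RNALater, and the labels do not say which for each.

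The early biopsies (n = 6) were taken at 86 to 117 days of age (median 90.5) and the late biopsies (n = 6) at 200 to 395 days (median 250.5). The interval within a mouse was 83 to 309 days (median 156). There were 2 female and 4 male mice, and the late tumor was called adenoma in 3 mice (1755, 1803 and 1805) and intramucosal carcinoma in 3 (2201, 3407 and 3413). Each array is a bulk biopsy, in which fewer cells of a type and less RNA per cell cannot be told apart. The values are from Affymetrix arrays and were read as log2 intensities, a scale the labels do not state. There was 1 array per biopsy. A difference of 1 is a doubling, and the number of arrays limits the precision of every difference.

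Tumors of Apc Min/+ mice lose the remaining working copy of Apc, and beta-catenin then accumulates and keeps Wnt target genes on. Such tumors also switch on genes of cell growth: enzymes that copy DNA, build sterols and make amino acids. Around the epithelium lie fibroblasts, vessels and immune cells, which supply matrix, growth factors and antagonists of the signals that act on the epithelium.

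In limma with mouse as a block, 0 of 19938 genes (0.0%) passed an adjusted p of 0.05, the smallest adjusted p being 0.168, so no gene below is called as differing and each is given with its values. At an unadjusted p under 0.05, 1133 genes (5.68%) were higher late and 1807 (9.06%) lower. Every late array was above every early array for 27 genes (0.135%) and below for 53 (0.266%). The median size of the difference was 0.22 among the 516 genes higher in all 6 mice and 0.22 among the 1033 lower, and a mean of more than 2-fold was reached by 18 and 31 of them. A difference over 0.2 in every mouse was found for 41 higher and 64 lower genes. At the edge of the rule, Ppp6r1 was inside at -0.0001 in mouse 1755, and Cox20, lower in 5 mice, was outside at 0.0 in mouse 2201. Among higher genes, Tbl1x was inside at 0.0006 in mouse 3413 and Rcor1 outside at 0.0 in mouse 2201. On the mean, 57.9% of all genes were lower late, a share to be read beside each count of genes lower on the mean. The median over all genes was -0.02, and with each array centred on its median 298 genes were higher and 1701 lower in all 6 mice, a split that leans further to the lower side.

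The submitters' sample numbers fall into 2 ranges. The early biopsies of mice 1755, 1803, 1805 and 2201 have numbers 155 to 255, and the other 8 arrays 319 to 379, so 4 pairs cross the ranges and those of mice 3407 and 3413 lie within 1. Differences were larger in the crossing pairs: the 516 higher genes had a median of 0.25 there and 0.14 in the other 2, and the 1033 lower genes -0.26 and -0.13. The crossing pairs also have the longer intervals (140 to 309 days, against 128 and 83 in mice 3407 and 3413) and hold all 3 adenomas, so interval and pathology run with the number range. Over 50 probe sets without a gene (those with the lowest numbers), the mean level was 7.078 to 7.186 on the 4 arrays of the low range and 6.803 to 6.938 on the other 8, without overlap. With the number range as a term in the fit, the median of 5 of the 47 function lists moved by more than the spread between mice. For the 4 crossing pairs the number range and the time point cannot be told apart. Values in mice 3407 and 3413 are given beside some of the results, not all. In size, their mean reached that of the crossing pairs for 132 of the 516 higher and 164 of the 1033 lower genes. Endothelial and fibroblast markers, set beside the members below, had medians above 0 in each crossing pair. In mouse 3407 their medians were 0.12 and 0.31, and in mouse 3413 -0.18 and -0.42. Smooth muscle markers were lower in mouse 3413 (median -0.72) and also in the crossing mouse 1805 (median -0.40).

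**Figure D1:**
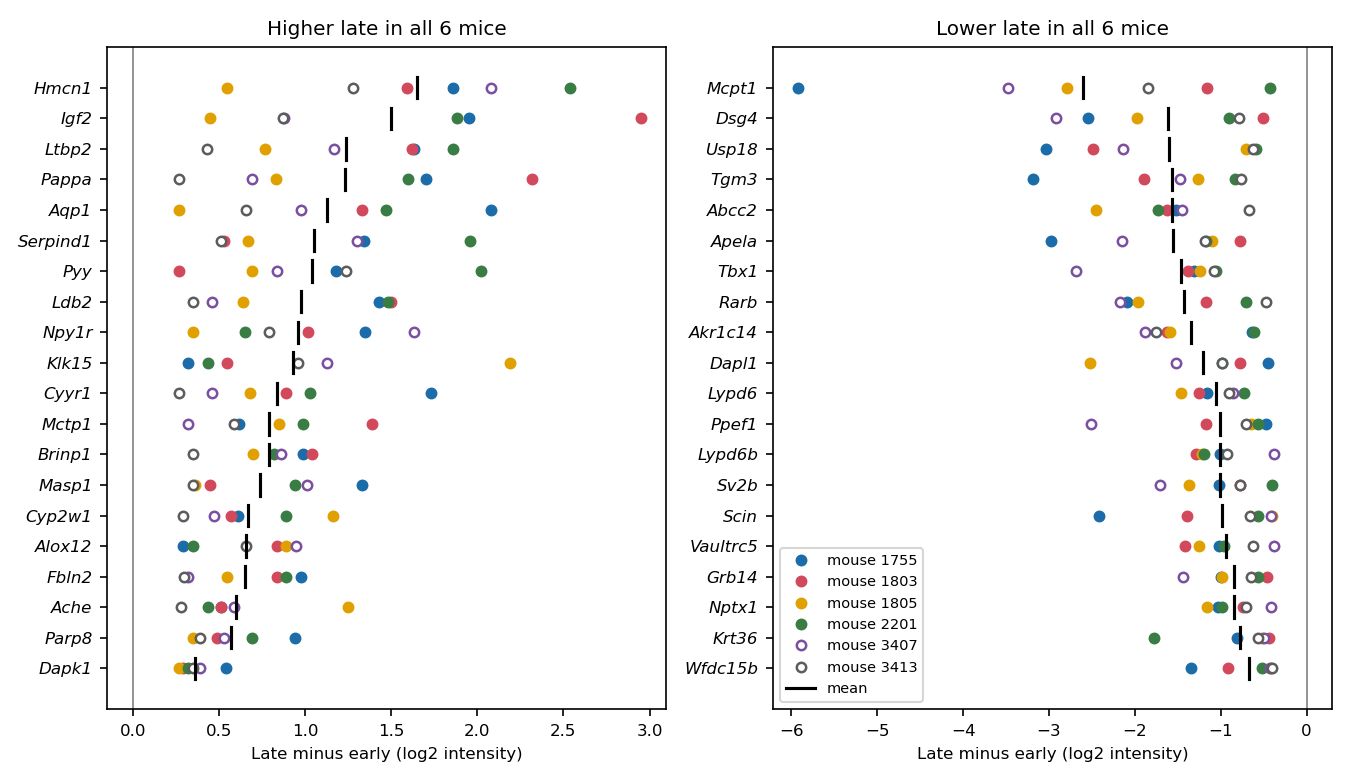
Late minus early difference (log2 intensity) in each of 6 mice for the 20 genes per direction with the largest difference in the mouse where it was smallest, among genes with the same sign in all 6 mice. Filled points are the 4 pairs that cross the sample number ranges, open points mice 3407 and 3413, and the black bar is the mean; Tbx1 lies beyond -1 in every mouse and Mcpt1 spreads from -0.43 to -5.92.

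Components of the Wnt pathway lay on both sides, and the most uniform were lower. Lypd6, a membrane-anchored LY6 protein that enhances Wnt signalling at its receptors, ranged from 7.02 to 8.15 early (median 7.70) and from 6.29 to 6.90 late (median 6.61). The groups did not overlap, and the difference was -1.06 (SE 0.101, limma adjusted p = 0.168), a 2.09-fold lower level. The late median was below 6.69, the 25th percentile of all genes, so the size of the fold is uncertain. Each mouse lay between -0.73 and -1.46, with mice 3407 and 3413 at -0.86 and -0.90. Lypd6b, the neighbouring gene of the same family, ranged from 7.93 to 8.92 early (median 8.44) and from 6.73 to 7.79 late (median 7.56), again without overlap. Its difference was -1.01 (SE 0.119, limma adjusted p = 0.168). Of the 28 LY6 family genes measured these were the 2 lower in all 6 mice (7.14%, against 5.18% of all genes), and none was higher.

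Fzd10, a Frizzled receptor for Wnt ligands, was at 8.29 to 8.61 early and 7.63 to 8.13 late, also without overlap (difference -0.56, SE 0.119). The ligand genes Wnt6 and Wnt10a, which lie next to each other, were lower by means of -0.73 (SE 0.208) and -0.69 (SE 0.217). In mouse 3407 those differences were only -0.04 and -0.11, and in 3413 -0.24 and -0.12. Of 25 Wnt receptors and enhancers 2 (8%) were lower and 1 (4%) higher in all 6 mice, against 5.18% and 2.59% of all genes. On the mean 20 of the 25 were higher (median 0.07). Of 19 Wnt ligands 2 (10.5%) were lower and 1 (5.26%) higher in all 6 mice, with 11 lower on the mean (median -0.02). Apcdd1, a membrane-bound Wnt inhibitor and target, was at -1.05 (SE 0.354), from -0.23 to -3.01. Its mean was -1.45 in the crossing pairs, with mice 3407 and 3413 at -0.23 and -0.29. Of 21 inhibitors and feedback targets measured, 4 (19%) were lower in all 6 mice, against 5.18% of all genes. These were Apcdd1, Nkd1, which antagonises Dishevelled (-0.55, SE 0.294), Znrf3, a ligase that removes Frizzled receptors (-0.35, SE 0.168), and Lef1, a transcription factor partner of beta-catenin (-0.38, SE 0.222). The late biopsy of mouse 1805 carried most of the mean for Nkd1, Znrf3 and Lef1, with differences of -2.32, -1.33 and -1.70, against -0.02 to -0.45 in the other 5 mice. Without that mouse 4 of 21 were again lower in every remaining mouse, beside a larger share of all genes, 7.61%. The list median was then -0.07 in place of -0.15. Without mouse 2201, 6 were lower, beside 6.72% of all genes.

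Nkd2, the paralogue of Nkd1, was higher in all 6 mice at 0.48 (SE 0.0781), so the paralogues lay on opposite sides. Wnt3, a ligand made in the crypt, was higher at 0.39 (SE 0.134), and Wls, which carries Wnt ligands to the cell surface, at 0.13 (SE 0.0515). Genes of the core of the pathway and its common targets did not have the same sign in all 6 mice. Apc was at 0.00 (SE 0.0493), Ctnnb1 at -0.13 (SE 0.0609), Axin2 at -0.26 (SE 0.152) and Myc at -0.13 (SE 0.143). Lgr5, a stem cell receptor that amplifies Wnt signals, was higher in 5 of 6 mice, at 0.67 (SE 0.233), the exception being mouse 1805 at -0.35.

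**Figure D2:**
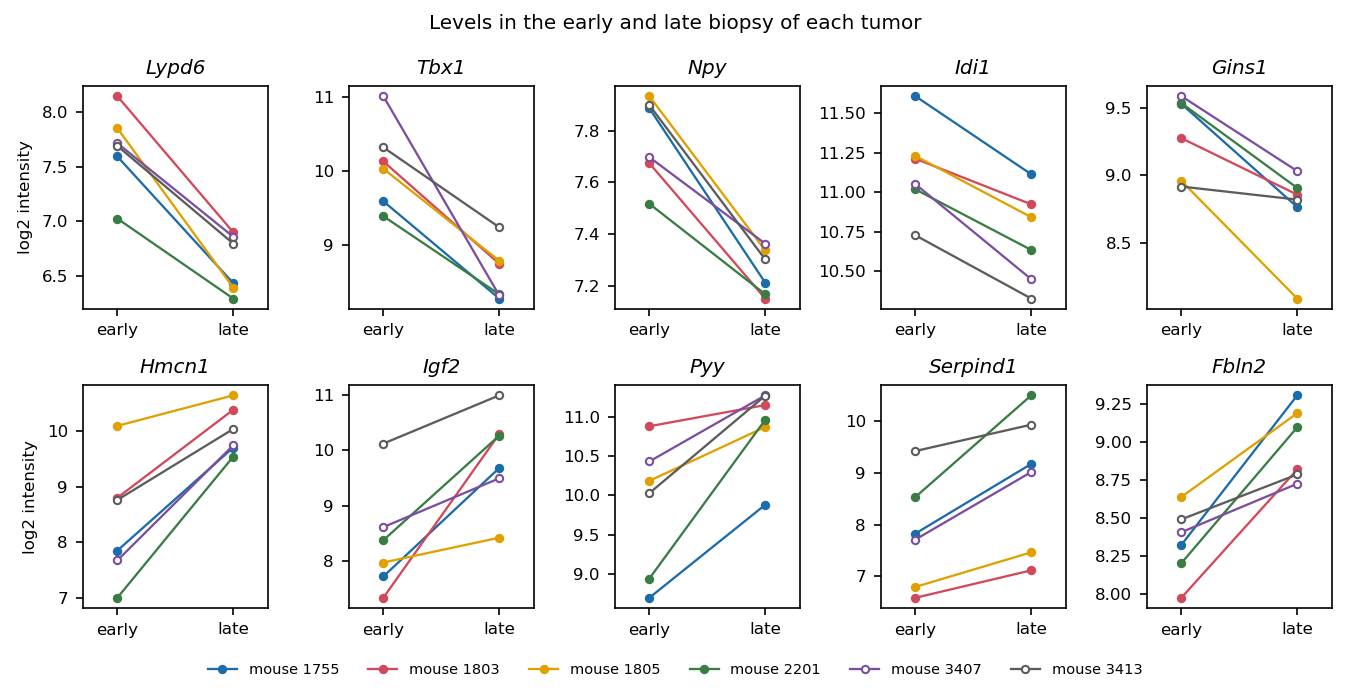
Level (log2 intensity) of 10 genes in the early and late biopsy, with a line for each of the 6 mice and open points for mice 3407 and 3413; each panel has its own axis, which does not start at 0. All lines go down in the upper row and up in the lower row, and the early and late levels of Lypd6, Tbx1, Npy and Fbln2 do not overlap.

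Genes of the patterning and identity of the epithelium were among the lower members. Tbx1, a T-box transcription factor of embryonic foregut and pharynx, was at 9.39 to 11.02 early (median 10.09) and 8.28 to 9.25 late (median 8.55). Its groups did not overlap, and it was the member with the largest difference in the mouse where it moved least: -1.05, in mouse 2201. The mean was -1.46 (SE 0.208, limma adjusted p = 0.168). The related Tbx3, which is a Wnt target in colon tumors, was lower at -0.60 (SE 0.105). Rarb, a retinoic acid receptor, was lower at -1.43 (SE 0.251), with early levels of 10.10 to 11.03 and late levels of 8.25 to 10.34, which overlapped. Dlx3 (-0.43, SE 0.0888), a homeobox factor of surface epithelia, and Hoxb13 (-0.27, SE 0.0558), which marks the distal colon, were lower too. Hoxd10 was higher, at a mean of 0.90 (SE 0.416), of which mouse 3413 alone gave 3.40 (6.20 to 9.60) and the others 0.17 to 0.80. In mice 1755 (6.21 to 6.50) and 2201 (6.45 to 6.64) both levels were below 6.69, the 25th percentile of all genes. Their sign for this gene therefore rests on low levels. Of 56 homeobox and T-box genes measured, 5 (8.93%) were lower and 3 (5.36%) higher in all 6 mice, against 5.18% and 2.59% of all genes. Apela, which encodes a small secreted ligand of the apelin receptor, was lower at -1.56 (SE 0.280), with the late biopsy of mouse 1803 standing above the rest at 7.85. The other late levels, 5.30 to 5.78, were below the 25th percentile of all genes.

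Other lower members belong to keratinised and squamous surfaces. Dsg4, a desmosomal cadherin, was at 7.24 to 10.72 early and 6.04 to 10.21 late, with wide overlap between groups but a lower late level in each mouse (-0.51 to -2.92, mean -1.61, SE 0.337). Its neighbour Dsg3 was at -0.81 (SE 0.186), though by only -0.01 in mouse 1803. Tgm3, a transglutaminase that cross-links the cell envelope, was at -1.57 (SE 0.301), Dapl1 at -1.21 (SE 0.247) and the keratin Krt36 at -0.77 (SE 0.174). The list of squamous markers held 11 genes, of which 2 (Dsg3 and Krt10) were lower in all 6 mice (18.2%, against 5.18% of all genes). On the mean 9 of the 11 were lower, with a median of -0.16. Most were higher late in mouse 1803 (7 of 11, median 0.05) and mouse 1805 (8 of 11, median 0.12). Their summed level was 12.11 to 12.70 early and 11.40 to 13.43 late, and Krt14, a defining basal keratin, was at 1.37 in mouse 1805 and -0.75 in mouse 3413. The part of these cells in the result was not tested.

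Further lower genes act at the apical membrane or on small molecules. Lists of such genes were near the share of all genes. Of 20 ABC exporters 1 (5%) and of 38 xenobiotic metabolism genes 2 (5.26%) were lower in all 6 mice, against 5.18%. Of the latter 3 (7.89%) were higher, against 2.59%. Abcc2, an exporter of conjugated compounds, was at 9.46 to 11 early (median 10.11) and 7.67 to 9.54 late (median 8.65). The groups overlapped by a narrow margin, and the mean was -1.57 (SE 0.193, limma adjusted p = 0.168), with mice 3407 and 3413 at -1.45 and -0.67. Akr1c14, a steroid-converting aldo-keto reductase, was at -1.35 (SE 0.194). Muc6, a gel-forming gastric mucin, was at -1.16 (SE 0.237), and Mal, a protein of apical transport, at -0.86 (SE 0.123). Muc6 averaged -1.46 in the crossing pairs and -0.54 in mice 3407 and 3413, and Mal -0.81 and -0.97. Prr15 (-0.73, SE 0.102), Wfdc15b (-0.67, SE 0.134), the calcium-dependent phosphatase Ppef1 (-1.01, SE 0.259) and the actin-severing protein Scin (-0.98, SE 0.267) were lower as well. Grb14, an adaptor that restrains insulin receptor signalling, was at 7.81 to 8.71 early and 7.27 to 7.69 late, without overlap (-0.85, SE 0.127). Usp18, which removes the ubiquitin-like protein Isg15 and damps interferon signalling, was at -1.60 (SE 0.364). Of 32 interferon response genes 26 were lower on the mean. Only Usp18 and Bst2 (-0.27, SE 0.139) were lower in all 6 mice (6.25%, against 5.18% of all genes). The list median was -1.03 in mouse 1755 but 0.30 in mouse 1805 and 0.45 in mouse 2201. Mcpt1, a mucosal mast cell protease, was at -2.60 (SE 0.651), while the 11 mast cell markers had a per-mouse median from -2.13 in mouse 1755 to 0.47 in mouse 2201.

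Enzymes that copy DNA were lower late with few exceptions on the mean. Of 38 genes of DNA replication and licensing, 37 were lower on the mean, 24 at an unadjusted p under 0.05, and 12 (31.6%) in all 6 mice, against 5.18% of all genes. None was higher in all 6. The list median was -0.22, against -0.02 over all genes. The 12 include a part of the origin recognition complex (Orc6, -0.41), parts of the helicase that opens DNA (Gins1, Gins2, Gins3 and Cdc45) and Mcm10, which acts with it. They also include primase (Prim1, -0.45), a leading-strand polymerase (Pole, -0.20) and single-strand binding proteins (Rpa1, -0.36, and Rpa2, -0.21). The others are ligase (Lig1, -0.22) and ribonucleotide reductase, which makes the DNA precursors (Rrm1, -0.21). Gins1 was at 8.92 to 9.59 early (median 9.40) and 8.09 to 9.03 late (median 8.84), a difference of -0.55 (SE 0.1, limma adjusted p = 0.206). Its groups overlapped, since the early biopsies of mice 3413 and 1805 (8.92 and 8.96) were under the highest late one.

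Genes of mitosis, the step that follows, were lower in most mice as well, but seldom in all 6. Of 37 measured, 29 were lower on the mean, with a median of -0.08. In all 6 mice 1 was lower (2.7%, against 5.18% of all genes), Spc25 of the kinetochore (-0.32, SE 0.0908). In mouse 1755, 32 of 37 mitosis genes were higher late while 33 of 38 replication genes were lower, and in mouse 3413 the counts were 35 higher and 28 lower. In the other 4 mice both lists were mostly lower, with 32 (1803), 35 (1805), 34 (2201) and 34 (3407) of 37 mitosis genes lower and 23, 37, 38 and 26 of 38 replication genes. The difference between the lists was not tested. Mki67, a general marker of cycling cells, was at 0.03 (SE 0.0925), higher in 2 of 6 mice. The median of the replication list was -0.27 in the crossing pairs and -0.08 in mice 3407 and 3413, where 18 of 38 (47.4%) were lower in both mice, against 25.2% of all genes. Without mouse 1805, whose late biopsy was the lowest late array for Gins1, Prim1, Pole, Lig1 and Rrm1, 12 of 38 (31.6%) were lower in each remaining mouse, against 7.61% of all genes. The count was 19 without mouse 3413, beside 10.9% of all genes. Genes that copy DNA methylation onto the new strand were also lower in all 6 mice: the methyltransferase Dnmt1 (-0.19, SE 0.0682), its partner Uhrf1 (-0.33, SE 0.106) and the remodeller Hells (-0.48, SE 0.143). They were among 6 of 44 chromatin modifiers (13.6%) lower in all 6 mice, against 5.18% of all genes. Without mouse 3413, 13 were lower, beside 10.9% of all genes, and without mouse 2201, 9 were, beside 6.72%.

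**Figure D3:**
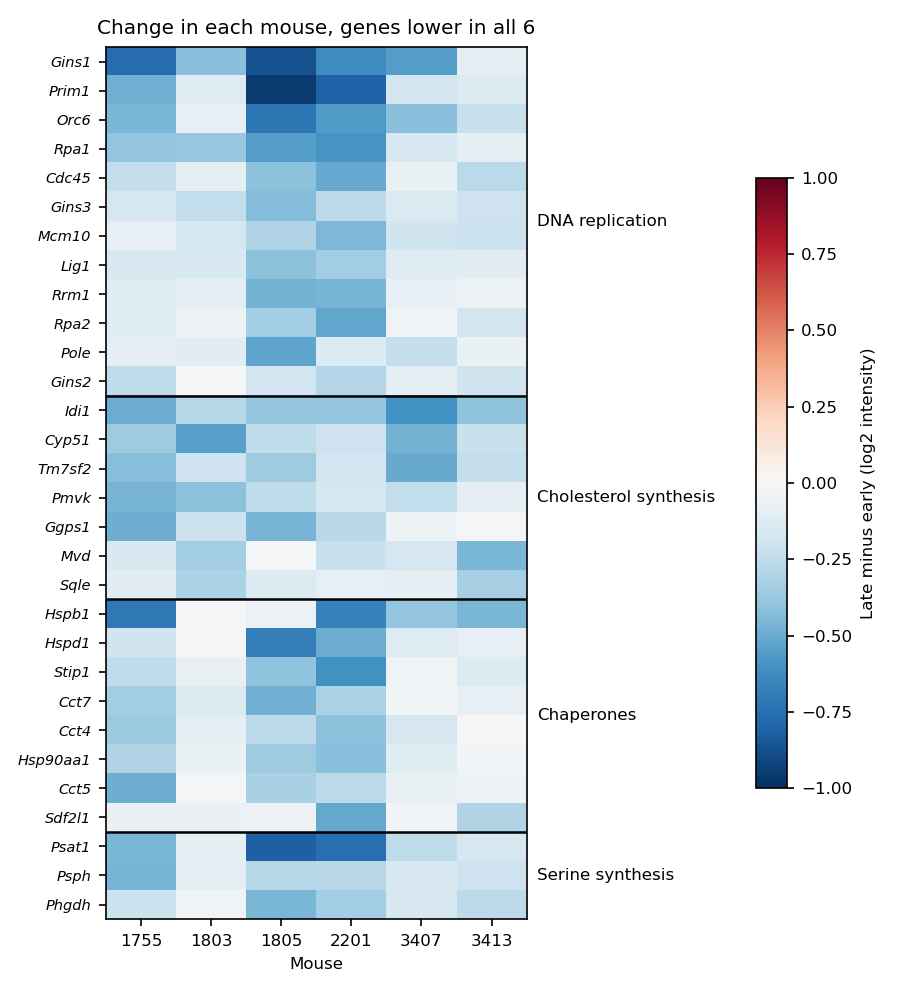
Late minus early difference (log2 intensity, blue lower) in each of 6 mice for the genes lower in all 6 mice on the DNA replication, cholesterol and chaperone lists and for the 3 enzymes of serine synthesis. Columns 1805 and 2201 are darkest for DNA replication, while among the cholesterol rows Idi1 averages -0.39 in the crossing pairs and -0.50 in mice 3407 and 3413, and Ggps1 -0.36 and -0.03.

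The mevalonate pathway, which makes cholesterol and isoprenoids, had, with DNA replication, the largest shares of lower members among the 47 function lists. The order of the pair turned with arrays centred on the median (38.1% and 42.1%) and without mouse 1803, 3407 or 3413. Of 21 genes, 19 were lower on the mean and 7 (33.3%, against 5.18% of all genes) in all 6 mice, with a median of -0.13. Idi1, which isomerises isopentenyl diphosphate, was at 10.73 to 11.61 early (median 11.13) and 10.33 to 11.12 late (median 10.74). Its groups overlapped, but all mice lay close together, from -0.29 to -0.60 (mean -0.43, SE 0.0553, limma adjusted p = 0.168). Cyp51, the lanosterol demethylase, was at -0.34 (SE 0.0623), and Tm7sf2, a sterol reductase, at -0.32 (SE 0.0598). The kinase Pmvk (-0.27), the decarboxylase Mvd (-0.23), the prenyl synthase Ggps1 (-0.25) and the squalene epoxidase Sqle (-0.18) were lower by less. Its median was -0.11 in the crossing pairs and -0.18 in mice 3407 and 3413, and 15 of 21 genes (71.4%) were lower in both of these mice, against 25.2% of all genes. In mouse 3413 all 21 were lower, and in mouse 1755 only 11. Of 17 fatty acid genes 2 were lower in all 6 mice (11.8%, against 5.18% of all genes). They were Scd1, the delta-9 desaturase (-0.64, SE 0.184), and Fasn, the fatty acid synthase (-0.26, SE 0.0879). Scd1 did not overlap between groups, at 12.18 to 12.72 early and 10.83 to 12.13 late.

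The promoters of these enzymes and of the replication genes were searched, since both lists had large shares of genes lower in all 6 mice. The mice with the lowest list medians differed. They were 1805 (-0.42) and 2201 (-0.39) for replication, and 3413 (-0.25) and 1803 (-0.24) for cholesterol. RefSeq windows of 300 bases (GRCm38.p6, 250 before and 50 after the start of transcription) were matched by symbol for 15614 of the measured genes. CCAAT, the letters of the box bound by NF-Y, was present on either strand in 41.7% of these genes, in 47% of those lower and 41.7% of those higher in all 6 mice. It was present in 17 of 17 cholesterol genes with a window, in 20 of 30 replication genes and in 8 of 9 replication genes lower in all 6 mice. It was present as well in 22 of 30 mitosis genes (73.3%) and in 10 of 14 fatty acid genes (71.4%). The longer string GATTGG, which holds the reverse complement of CCAAT, was in 15 of 17 cholesterol and 14 of 30 replication genes (20.4% of all genes). In all, 17 strings were searched, chosen with the results known. The E2F strings TTTCCCGC, TTTGGCGC and TTCCCGCC, of which the first and last can overlap, were in 6, 5 and 5 of 30 replication genes (1.76%, 0.833% and 3.53% of all genes) and in 1, 0 and 2 of the 9 that were lower in all 6 mice. In the 17 cholesterol genes they were in 0, 0 and 2. CACCCCAC, the core of a sterol response element, was in 1 of 17 cholesterol genes (3.49% of all genes). GGGCGG was in 15 of 17 cholesterol and 21 of 30 replication genes (52.9% of all genes), CACGTG in 4 and 5 (9.5%) and TGACGT, which is also part of TGACGTCA, in 2 and 8 (10.2%). The Tcf and Lef string ATCAAAG was in 0 genes of either list (3.71% of all genes). TGACGTCA and TTAATTAA were in 0 cholesterol genes and in 1 replication gene each (2.72% and 0.666% of all genes). The T-box string GGTGTGA was in 0 cholesterol and 2 replication genes (4.39% of all genes). Of longer or looser forms, TTTNNCGC with C or G at each N was in 0 cholesterol and 12 replication genes, 2 of them lower in all 6 mice (3.48% of all genes), and TTTCCCGCC in 0 and 2 (0.833%). A longer form of the Tcf and Lef string (0.115% of all genes) and TCACACCT, a form of the T-box string (1.31%), were in 0 genes of both lists. A match is only a match of letters.

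The windows of 2 cholesterol and 2 replication genes lower in all 6 mice are shown to let the position of the box be seen, on the strand of the gene, with CCAAT or its reverse complement ATTGG in capitals. They are chr13:8885356-8885655 (+ strand) for Idi1, chr5:4104648-4104947 (- strand) for Cyp51, chr16:18811923-18812222 (- strand) for Cdc45 and chr2:5012742-5013041 (- strand) for Mcm10. The matches begin at -45 and -14 from the start of transcription in Idi1, at -29 in Cyp51, at -13 and -2 in Cdc45, and at -98, -23 and 32 in Mcm10.
Idi1: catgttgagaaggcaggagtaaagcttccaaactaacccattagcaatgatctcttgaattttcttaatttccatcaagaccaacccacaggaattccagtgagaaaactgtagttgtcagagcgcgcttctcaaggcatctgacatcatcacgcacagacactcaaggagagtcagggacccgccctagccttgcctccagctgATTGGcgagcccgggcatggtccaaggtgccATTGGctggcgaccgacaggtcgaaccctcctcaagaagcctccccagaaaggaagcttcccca
Cyp51: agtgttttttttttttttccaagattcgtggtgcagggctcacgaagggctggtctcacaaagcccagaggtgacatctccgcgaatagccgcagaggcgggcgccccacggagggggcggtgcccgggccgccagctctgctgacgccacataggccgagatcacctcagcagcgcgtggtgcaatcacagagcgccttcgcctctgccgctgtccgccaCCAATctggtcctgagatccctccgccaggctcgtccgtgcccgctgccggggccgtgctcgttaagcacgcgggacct
Cdc45: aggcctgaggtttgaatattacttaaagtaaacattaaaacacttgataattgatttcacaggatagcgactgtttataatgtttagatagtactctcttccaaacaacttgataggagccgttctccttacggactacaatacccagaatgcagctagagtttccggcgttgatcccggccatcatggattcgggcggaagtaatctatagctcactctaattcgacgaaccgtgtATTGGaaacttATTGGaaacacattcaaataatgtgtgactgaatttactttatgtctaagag
Mcm10: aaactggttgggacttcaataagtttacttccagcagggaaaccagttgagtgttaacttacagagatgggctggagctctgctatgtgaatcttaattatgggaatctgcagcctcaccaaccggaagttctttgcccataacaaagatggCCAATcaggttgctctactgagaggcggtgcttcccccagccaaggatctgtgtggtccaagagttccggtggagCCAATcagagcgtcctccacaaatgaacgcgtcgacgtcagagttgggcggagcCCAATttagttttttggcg

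Serine is made in 3 steps, and the enzyme of each was lower in all 6 mice: Phgdh (-0.24, SE 0.0636), Psat1 (-0.42, SE 0.110) and Psph (-0.25, SE 0.0604). Psat1 was at 9.71 to 10.24 early and 8.89 to 9.82 late, so the groups overlapped, and mice 3407 and 3413 were at -0.25 and -0.17. Gpt2, a mitochondrial alanine aminotransferase, was lower at -0.44 (SE 0.0948). The list of amino acid, one-carbon and polyamine enzymes had 5 of 28 genes (17.9%) lower in all 6 mice, against 5.18% of all genes. Of 49 folding genes, 8 (16.3%) were lower in all 6 mice, against 5.18% of all genes, and 43 on the mean, against 57.9% of all genes. Among them were 3 subunits of the chaperonin that folds tubulin and actin, Cct4 (-0.22), Cct5 (-0.20) and Cct7 (-0.23), the mitochondrial chaperonin Hspd1 (-0.27), Hsp90aa1 (-0.22), its co-chaperone Stip1 (-0.25) and the small heat shock protein Hspb1 (-0.39, SE 0.107). The folding genes had a median of -0.17 in the crossing pairs but -0.01 in mice 3407 and 3413. Without mouse 3407, 13 were lower, beside 8.4% of all genes. Pcx, which feeds the citric acid cycle from pyruvate (-0.44, SE 0.0716), and Pdk4, which blocks entry of pyruvate (-0.91, SE 0.247), were both lower.

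**Figure D4:**
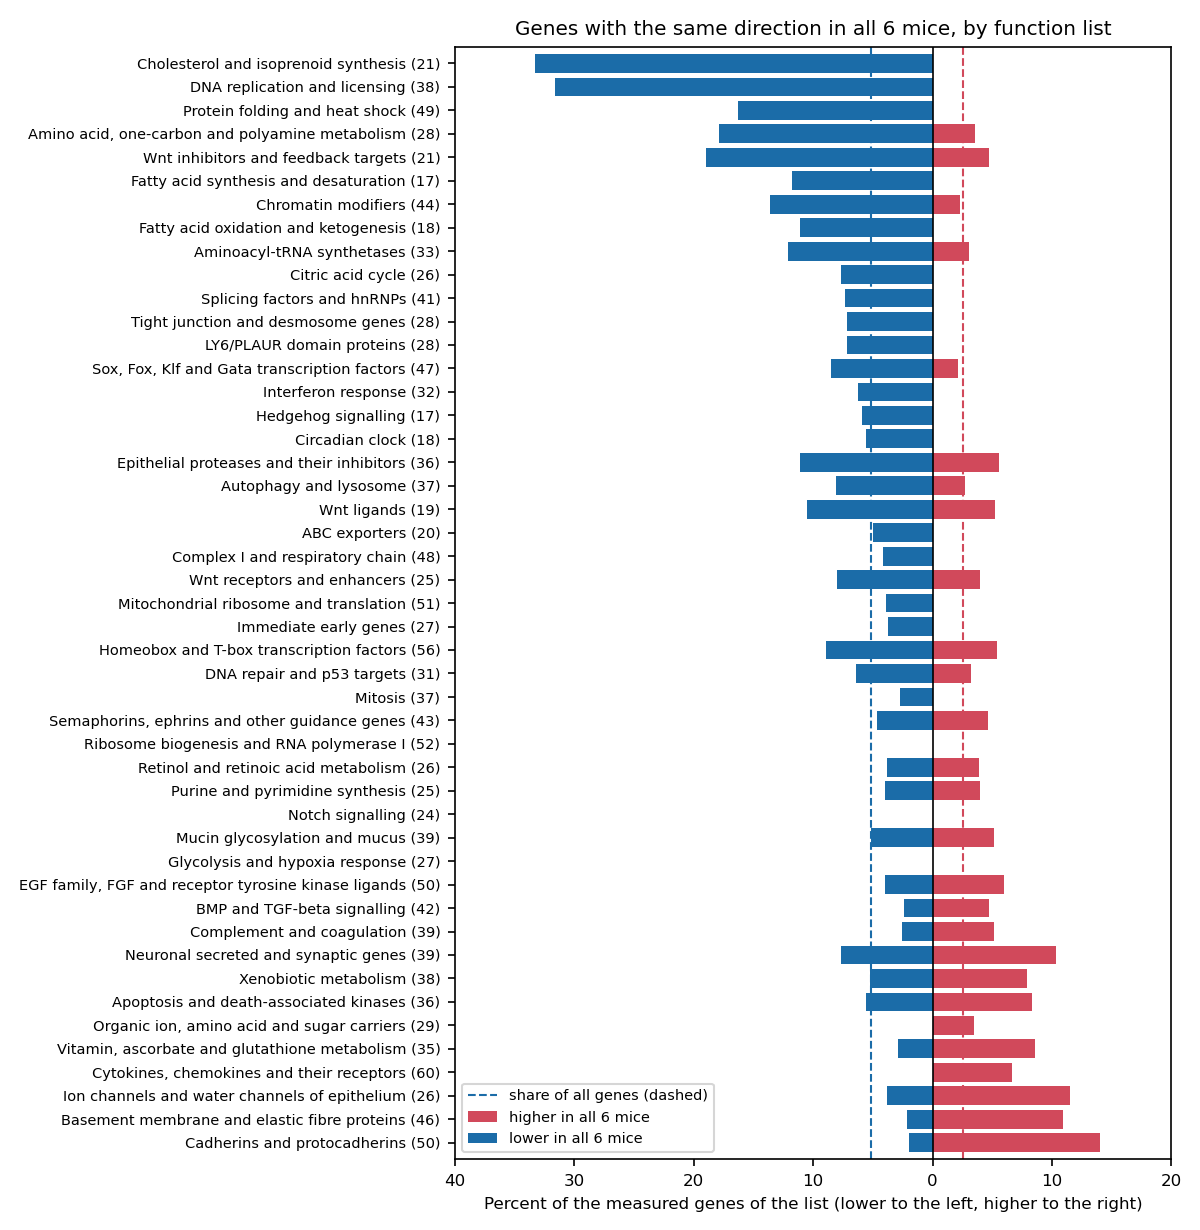
Percent of the measured genes (number in parentheses) of each of 47 function lists that were higher (red, to the right) or lower (blue, to the left) late in all 6 mice, with the shares of all 19938 genes, 2.59% and 5.18%, as dashed lines. Cholesterol synthesis (33.3%) and DNA replication (31.6%) reach farthest to the left, and cadherins (14%) farthest to the right.

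Noncoding RNAs of the ribosome and tRNA machinery were among the lower members. Of 51 small nucleolar RNAs, which guide the modification and cutting of ribosomal RNA, 12 (23.5%) were lower and 2 (3.92%) higher in all 6 mice, against 5.18% and 2.59% of all genes, and the median was -0.27. Snora73a and Snora73b were at -1.03 and -1.02. Rpph1, the RNA of the ribonuclease that trims tRNA, was at -0.60 (SE 0.154), Rmrp, the RNA of a related ribonuclease that cuts ribosomal RNA, at -0.53 (SE 0.203) and Vaultrc5, a vault RNA, at -0.94 (SE 0.135). These 4 RNAs outside the vault were singled out after their values were seen. The small nucleolar RNAs had a median of -0.34 in the crossing pairs and -0.02 in mice 3407 and 3413, and -0.78 in mouse 1805. Rpph1 averaged -0.78 in the crossing pairs and -0.23 in mice 3407 and 3413, and Rmrp -0.48 and -0.64. Of 52 protein genes of ribosome biogenesis 0 were higher or lower in all 6 mice, against 2.59% and 5.18% of all genes, although 47 were lower on the mean. Their median was -0.22 in the crossing pairs, 0.09 in mice 3407 and 3413 and -0.45 in mouse 1805. The difference between these genes and the small nucleolar RNAs was not tested.

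The albumin genes form a block of 4 neighbours, and all 4 were lower in all 6 mice. Alb, which encodes the main plasma protein of the liver, was at 9.77 to 11.97 early (median 11.29) and 7.52 to 11.26 late (median 10.15), with overlap between groups (-1.50, SE 0.341, limma adjusted p = 0.221). Mouse 1805 was at -3.23 and mouse 1755 at -0.27. Afp, the fetal counterpart, was at -0.37 (SE 0.0711), Albfm1 at -0.44 (SE 0.0878) and Afm at -0.17 (SE 0.0531). Those 3 had mean levels below 6.69, the 25th percentile of all genes. The block was noticed in the data. Neighbours of genes lower in all 6 mice were lower in all 6 themselves in 8.8% of cases, against 5.18% of all genes, and for higher genes the value was 4.47% against 2.59%.

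Matrix proteins and growth factors held some of the largest differences among higher genes. Hmcn1, which encodes hemicentin, a very long protein of the matrix beside basement membranes, was at 6.99 to 10.09 early (median 8.30) and 9.54 to 10.64 late (median 9.89). The early biopsy of mouse 1805 was high at 10.09, so the groups overlapped, but each mouse was higher late, by 0.55 to 2.54. The mean was 1.65 (SE 0.232, limma adjusted p = 0.168), a 3.14-fold higher level. Ltbp2, an elastic fibre protein related to the binders of latent TGF-beta, was at 1.24 (SE 0.190), Fbln2, a fibulin of basement membranes and elastic fibres, at 0.65 (SE 0.108), and Thbs2, a matricellular inhibitor of vessel growth, at 0.79 (SE 0.190). Fbln2 did not overlap between groups, at 7.98 to 8.64 early and 8.73 to 9.31 late. Of 46 basement membrane and elastic fibre genes, 5 (10.9%) were higher in all 6 mice, against 2.59% of all genes, and 35 on the mean (median 0.44). The same list had a median of -0.02 in mice 3407 and 3413. Once mouse 3413 was left out, 23 of 46 were higher in every mouse, beside 6.4% of all genes.

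The 17 fibroblast markers, set beside these, were all higher on the mean and none was higher in all 6 mice. Their summed level was 14.60 to 16.30 early and 15.91 to 16.15 late. In mouse 3413 all 17 were lower late, with a median of -0.42, and in mouse 3407 the median was 0.31. Hmcn1, Ltbp2 and Fbln2 were at 1.28, 0.43 and 0.30 in mouse 3413, a direction that the choice of members fixes. The part of fibroblasts in these results was not tested. The 14 endothelial markers had a summed level of 13.26 to 14.37 early and 13.89 to 14.22 late and a median of 0.84, but 3 of 14 were higher in mouse 3413, where the median was -0.18. Sox18, a transcription factor of vessels and lymphatics, was the endothelial marker higher in all 6 mice, at 0.44 (SE 0.0714), with 0.23 in mouse 3413. Ldb2, a cofactor of LIM-domain transcription factors, did not overlap between groups, at 7.60 to 8.60 early and 8.65 to 9.21 late (0.98, SE 0.187). Aqp1, a water channel of small vessels, was at 1.13 (SE 0.216), Cyyr1 at 0.84 (SE 0.175) and Egfl7, a matrix protein secreted by endothelium, at 0.61 (SE 0.148), of which 0.09 and 0.17 in mice 3407 and 3413.

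Members of the insulin-like growth factor axis lay on both sides. A list of 16 ligands, receptors, binding proteins and proteases of the axis was drawn up after the values were seen. Of these, 3 were higher and 1 lower in all 6 mice, beside 2.59% and 5.18% of all genes. On the mean 11 were higher (median 0.22), beside 42.1% of all genes. Igf2, a fetal growth factor, was at 7.34 to 10.12 early (median 8.18) and 8.42 to 10.99 late (median 9.97), a 2.82-fold higher level on the mean (1.5, SE 0.312, limma adjusted p = 0.207). The groups overlapped, with the early biopsy of mouse 3413 high at 10.12 and the late biopsy of mouse 1805 low at 8.42. Igf1r, the receptor that transmits the signal of Igf2, was higher at 0.55 (SE 0.157), by only 0.05 in mouse 3413. Pappa, a protease that frees ligand from its binding proteins, was at 1.23 (SE 0.257). It averaged 1.61 in the crossing pairs and 0.48 in mice 3407 and 3413. Igf2r, which takes up Igf2 and sends it to lysosomes, was lower in all 6 mice, at -0.24 (SE 0.0760), but by -0.05 and -0.06 in mice 3407 and 3413. Grem1, a secreted BMP antagonist of crypt stroma, was at 1.56 (SE 0.356), from 0.06 in mouse 3413 to 3.06 in mouse 1803. The guidance pair Slit2, a secreted ligand, and Robo2, its receptor, were both higher, at 0.55 (SE 0.118) and 0.88 (SE 0.219). Slit2 averaged 0.67 in the crossing pairs and 0.32 in mice 3407 and 3413, and Robo2 1.17 and 0.32.

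Neuropeptide Y family genes were split by member. Npy itself was at 7.52 to 7.93 early and 7.15 to 7.36 late, without overlap (-0.51, SE 0.0628, limma adjusted p = 0.168). Pyy, the hormone of colonic endocrine cells, was at 8.69 to 10.88 early (median 10.11) and 9.88 to 11.27 late (median 11.06), at 1.04 (SE 0.202), and its neighbour Ppy, pancreatic polypeptide, at 0.50 (SE 0.106). Npy1r, a receptor of the family, was at 0.96 (SE 0.161), from an early median of 6.46, which is below the 25th percentile of all genes (6.69). Of 11 endocrine cell markers only Pyy was higher in all 6 mice (9.09%, against 2.59% of all genes). The list median was 0.04, and the summed level was 11.07 to 12.62 early and 11.88 to 12.47 late. Other genes of neurons or endocrine cells were higher too: Brinp1 (0.79, SE 0.0925), Penk, the enkephalin precursor (1.01, SE 0.288), Ddc, which makes dopamine and serotonin (0.50, SE 0.0766), and Ache, which breaks down acetylcholine (0.60, SE 0.120). Nptx1, a secreted pentraxin of synapses, was lower without overlap, at 8.25 to 8.82 early and 7.51 to 8.12 late (-0.84, SE 0.1), as was the synaptic vesicle protein Sv2b, with overlap (-1.01, SE 0.161). The 9 markers of enteric neurons and glia had a summed level of 10.31 to 10.71 early and 10.18 to 12.05 late and a median of -0.02. The part of these cells in the result was not tested.

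Plasma-type proteins lay on both sides. Of 39 complement and coagulation genes, 2 (5.13%) were higher and 1 (2.56%) lower in all 6 mice, against 2.59% and 5.18% of all genes, and 14 were lower on the mean. Serpind1, heparin cofactor II, an inhibitor of thrombin, was at 6.59 to 9.42 early and 7.12 to 10.49 late. The groups overlapped widely, but the late level was higher in each mouse, by 0.51 to 1.96 (mean 1.05, SE 0.197). Masp1, a protease of the lectin pathway of complement, was at 0.74 (SE 0.142) and Hp, haptoglobin, which binds free haemoglobin, at 1.75 (SE 0.429), from 0.17 in mouse 3413 to 3.17 in mouse 1803. Reg3g and Reg1, neighbouring genes for secreted lectins of injured gut epithelium, were at 1.90 (SE 0.441) and 0.95 (SE 0.175). They were singled out after their values were seen.

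Of 50 cadherins and protocadherins, 7 (14%) were higher and 1 (2%) lower in all 6 mice, against 2.59% and 5.18% of all genes. Of the 7, 6 belong to the clustered beta protocadherins, cell-surface adhesion proteins encoded by an array of similar genes whose probes may share sequence. Pcdhb7 was at 6.69 to 8.07 early (median 7.10) and 7.02 to 8.51 late (median 7.40), with the early and late biopsies overlapping (0.36, SE 0.0525, limma adjusted p = 0.168). Mice 3407 and 3413 were at 0.35 and 0.44, within the 0.24 to 0.50 of the crossing pairs. The others were Pcdhb2 (0.56), Pcdhb16 (0.51), Pcdhb20 (0.25), Pcdhb13 (0.23) and Pcdhb15 (0.20), of which the last and Pcdhb16 are neighbours. Of 26 genes on a list of epithelial channels, 3 (11.5%) were higher and 1 (3.85%) lower in all 6 mice, against 2.59% and 5.18% of all genes. On the mean 13 were higher and 13 lower. The 3 were Aqp1, the water channel Aqp5 (0.60, SE 0.0847) and Cftr, the chloride channel of crypts (0.46, SE 0.146). Cftr ranged from 0.03 in mouse 1805 to 1.25 in mouse 3407.

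Further higher members make or process small molecules. Cyp2w1, a cytochrome P450 of fetal gut and colon tumors, was at 8.23 to 8.47 early and 8.67 to 9.53 late, without overlap (0.67, SE 0.112). Ces1g, a carboxylesterase, was at 1.76 (SE 0.387), though by only 0.01 in mouse 3413, where its early level of 9.52 was the highest early value. Fmo1, a flavin monooxygenase, was at 0.78 (SE 0.233), from 0.04 in mouse 1805 to 1.90 in mouse 2201. Gpx3, a secreted glutathione peroxidase, was at 1.03 (SE 0.263), but at only 0.13 and 0.04 in mice 3407 and 3413. Alox12, an arachidonate lipoxygenase, was at 0.66 (SE 0.103). Rdh18-ps, a retinol dehydrogenase pseudogene whose probes may also take transcripts of related genes, was at 0.56 (SE 0.0779). Klk15, a kallikrein protease, was at 0.93 (SE 0.233), Mctp1, a calcium-binding membrane protein, at 0.79 (SE 0.130), Parp8, a mono-ADP-ribosyltransferase, at 0.57 (SE 0.0840) and Dapk1, a death-associated kinase, at 0.36 (SE 0.0530).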

How the data were processed

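Colon tumor biopsies of 6 mice, early and late, were measured on 12 Affymetrix arrays. The deposited values were read as log2 intensities from their range; the labels do not state the scale, and the summarisation and normalisation by the authors are not given in the sources used here. Of 35557 probe sets, 21789 had 1 gene symbol in the platform annotation, 12147 none and 1621 several; for each gene the probe set with the highest mean was kept, which gave 19938 genes.

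Late minus early was fitted in limma (version 3.58.1, R 4.3.3) with mouse as a block and Benjamini-Hochberg adjustment over all genes at a threshold of 0.05 (residual df 5), and SEs and p-values come from this fit. The pairing is by the animal number in the labels; the deviations of early and late arrays of a mouse correlated at 0.11 to 0.527. The fit was tested on simulated data. The members and lists were chosen with earlier results of these data known.

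Genes were named, per direction and among members with a mean above the 25th percentile, as the 20 with the largest difference in the mouse where it was smallest, the 10 with the smallest p, up to 4 per function list, and 6 genes of the Wnt pathway and proliferation. Predicted genes, microRNAs, small nucleolar RNAs, chemosensory receptors and receptor segments were not eligible. Other genes were named after their values were seen: Pcdhb13, Pcdhb15, Ppy, Reg1, Reg3g, Alb, Afp, Afm, Albfm1, Rpph1, Rmrp, Snora73a, Snora73b, Prim1, Cdc45, Mcm10, Gins2, Lig1, Rpa2, Rrm1, Pole, Dnmt1, Hspd1, Stip1, Cct5, Ggps1, Mvd, Sqle, Krt10 and Krt14. A summed level is the log2 of the sum of the linear intensities of a list. Neighbours come from the RefSeq gene order.

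Alternatives were no block, a random block, age in days in place of the time point, and sample number range as a term. Further ones were other scalings, filters and probe set rules, and each mouse left out.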

Additional observations from a re-analysis of the deposited data

Results flagged for a closer look

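In 28 of 272 groups of 6 biopsies, over the 136 named genes, the highest or lowest biopsy stood far from the other 5; chance alone flags about 1 in 20 groups, and genes of 1 list are not independent. Values are log2 intensities.

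Most of these were the late biopsy of mouse 1805. It was the lowest late value for Gins1 (8.09), Prim1 (7.51), Lig1 (9.42), Rrm1 (10.71) and Pole (8.54) of DNA replication, for Hells (8.09) and Dnmt1 (10.02) of DNA methylation, and for the chaperones Hspd1 (11.4), Cct4 (11), Cct5 (11.31) and Cct7 (10.99). It was also the lowest for Psat1 (8.89), Fasn (11.46), Nkd1 (10.43) and Axin2 (10.15), and the highest late value for Tgm3 (11.35), Scin (10.11) and Pdk4 (8.2).

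Other late biopsies apart from the rest were those of mouse 3407 for Gpx3 (10.75, lowest), 1755 for Pyy (9.88, lowest), 1803 for Apela (7.85, highest), 3413 for Grb14 (7.69, highest) and 2201 for Apc (10.62, lowest). Early biopsies apart from the rest, each the highest, were those of mouse 3413 for Nkd2 (8.06), Pcdhb2 (7.58) and Ces1g (9.52), 1805 for Ppy (9.07) and 1755 for Bst2 (10.03).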

How the results depend on the processing

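No gene was called in the reported fit. The count was 4 with mouse as a random block (Npy, Lypd6, Nptx1 and Grb14, all lower), 33 with age as a continuous term (12 higher, 21 lower) and 0 to 2 with 1 mouse left out, the 2 being Tbx1 and Lypd6b without mouse 3407. Without the replicate block, that is without the pairing, it was 0, with 1835 genes at an unadjusted p under 0.05 in place of 2940; with the sample number range as a term it was 0, with 475.

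The genes higher and lower in all 6 mice numbered 298 and 1701 with arrays centred on the median, 337 and 644 among genes with a mean above the median, 112 and 199 with at least 0.1 in every mouse, and 41 and 64 with at least 0.2. With 1 mouse left out the counts were 623 to 1277 higher and 1334 to 2168 lower. Counts of higher genes moved by over 1.5 times without mouse 1805 (909), 2201 (938) and 3413 (1277), and of lower genes without 3407 (1674) and 3413 (2168); fewer mice make the rule easier to meet.

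Directions turned for 3 of the 136 named genes. Apc was at -0.0417 with the number range as a term, -0.0347 with centred arrays, and -0.0245 to 0.0187 with 1 mouse left out, below 0 without mouse 1755 (-0.0245) and 1805 (-0.0037). Mki67 was at -0.0049 with centred arrays and -0.0581 to 0.0707 with 1 mouse left out, below 0 without mouse 1755. With age its value was -8.13e-05 log2 per day, a slope whose size is not comparable with the differences. Myc was at 0.0596 with the number range. The cause was not tested. With 1 array per biopsy and 6 pairs, small differences are not resolved, and levels of different probe sets are not comparable.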

Other observations

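Of 9 tuft cell markers, 3 (Trpm5, Avil and Rgs13) were lower late in all 6 mice (33.3%, against 5.18% of all genes). On the mean 8 were lower, with a median of -0.30. The median was -1.01 in mouse 1755 and -0.04 in mice 3407 and 3413 together. In mouse 1803, 6 of the 9 were higher late (median 0.19). These values belong to a marker list and were not compared further.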
